A study of Mus musculus with 7 samples.

Results

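The 9 genes described here are the core of the Hedgehog signalling pathway: the ligand genes Shh, Ihh and Dhh, the receptor gene Ptch1, the transducer gene Smo, the ligand-binding inhibitor gene Hhip, and the transcription factor genes Gli1, Gli2 and Gli3. They were chosen by symbol, and all 9 were found among the 27138 features of the count table. Mouse embryonic pancreas was sampled at E15.5, when acinar, ductal and endocrine cells are forming. There were 4 WT and 3 cKO libraries, each labelled a biological replicate. Both groups were homozygous for a floxed allele of 2610035D17Rik (mLINC00673fl/fl), the mouse counterpart of LINC00673, a long non-coding RNA of humans. The WT embryos carried no Cre, and the cKO embryos also carried Pdx1Cre, a Cre recombinase driven by the promoter of Pdx1, which acts in the pancreatic epithelium and not in the mesenchyme around it. The effect of the deletion and any effect of Cre itself cannot be told apart in these groups.

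In Hedgehog signalling a secreted ligand binds Ptch1 and lifts its block on Smo, a transmembrane protein that works at the primary cilium. Active Smo lets Gli2 and Gli3 act as activators of transcription instead of being cut into repressors, and Gli1, Ptch1 and Hhip are themselves switched on by this response, so that their RNA is widely read as its output. Ptch1 and Hhip bind ligand and thereby limit the signal. In the embryo Shh is made by the stomach and intestinal epithelium and is kept out of the neighbouring pancreatic epithelium, which makes Shh reads in a pancreas library a check for attached gut. Ihh and Dhh are known in the embryonic pancreas, Ihh is also made by gut epithelium, and Dhh is made by Schwann cells.

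The 3 ligands and the 3 Gli factors are families of related genes, so how far their transcripts can be told apart bears on every count below. The coding stretches of 90 bases in which each family is most alike are shown here from the GENCODE M21 transcripts (GRCm38), 5′ to 3′, with capitals at bases that differ from the gene shown first in the family.
Shh: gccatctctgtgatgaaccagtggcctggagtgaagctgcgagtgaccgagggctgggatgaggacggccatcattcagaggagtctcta
Ihh: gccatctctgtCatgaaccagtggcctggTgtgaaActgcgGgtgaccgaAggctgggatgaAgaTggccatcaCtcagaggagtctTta
Dhh: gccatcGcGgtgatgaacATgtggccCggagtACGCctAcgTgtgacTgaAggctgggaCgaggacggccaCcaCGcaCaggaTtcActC
Gli1: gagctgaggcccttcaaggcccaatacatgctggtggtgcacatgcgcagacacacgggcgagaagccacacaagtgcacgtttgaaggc
Gli2: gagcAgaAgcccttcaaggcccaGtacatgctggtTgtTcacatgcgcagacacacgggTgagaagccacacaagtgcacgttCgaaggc
Gli3: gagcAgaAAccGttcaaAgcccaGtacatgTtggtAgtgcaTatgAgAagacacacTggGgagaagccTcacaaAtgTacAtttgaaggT
In these stretches Ihh shared 81 of 90 bases with Shh and Dhh 69, and Gli2 shared 83 with Gli1 and Gli3 72. The longest run of identical bases between any annotated transcripts was 17 for Shh and Ihh, 17 for Shh and Dhh, 16 for Ihh and Dhh, 23 for Gli1 and Gli2, 14 for Gli1 and Gli3, and 25 for Gli2 and Gli3. Even where the families are most alike, a difference therefore fell within every run of 26 bases. The 9-base Gli consensus TGGGTGGTC or its reverse complement GACCACCCA was in none of the promoters of the 7 members that the RefSeq table (GRCm38.p6) holds, a window from 250 bases before to 50 after the start. Shh and Gli1 were not among these 7 members. The motif was in 0.253% of all 32851 promoters of that length, so its absence from 7 carries little information.

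The libraries held 14883918 to 17767373 counts, and edgeR tested 16910 features after a filter on low counts. Of these 0.00591% were called at an adjusted p under 0.05 and 1.38% had an unadjusted p under 0.05. The targeted gene 2610035D17Rik, which checks the labels, had 7.93 to 9.08 CPM (counts scaled to a common library total) in WT and 2.01 to 3.38 CPM in cKO. Its fitted difference was −1.76 on the log2 scale (SE 0.215), with an adjusted p of 0.0902 in edgeR and 1.43e-09 in DESeq2, and the sources used here do not say which of its exons are floxed. Pancreatic epithelium was well represented, with a summed level of its 10 markers of 6880 to 11500 CPM in WT and 6500 to 8020 CPM in cKO, as was mesenchyme, with 10200 to 12700 and 10300 to 11400 CPM. The acinar enzyme gene Cpa1 took the largest share of the pancreatic epithelium sum in every library. WT replicate 4 and cKO replicate 1 stood apart in liver genes, with a summed level of 1270 and 1940 CPM against 306 to 421 CPM in the other 5 libraries.

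No Hedgehog member passed the test of cKO against WT. Of the 9, 7 had enough counts to be tested, and edgeR called 0 of them (Benjamini-Hochberg over all features), DESeq2 called 0 (0.0443% of all its features), and 0 had an unadjusted p under 0.05 with edgeR. The groups overlapped in the CPM of all 9 members, whereas 2.72% of all tested features had groups that did not overlap. Fitted log2 fold changes of the 7 ran from −0.51 (Hhip) to 0.15 (Dhh), with a median of −0.05 beside −0.01 over all tested features, and every 95% interval included 0. In a bulk sample, fewer cells that express a gene and less RNA per cell cannot be told apart.

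**Figure D1:**
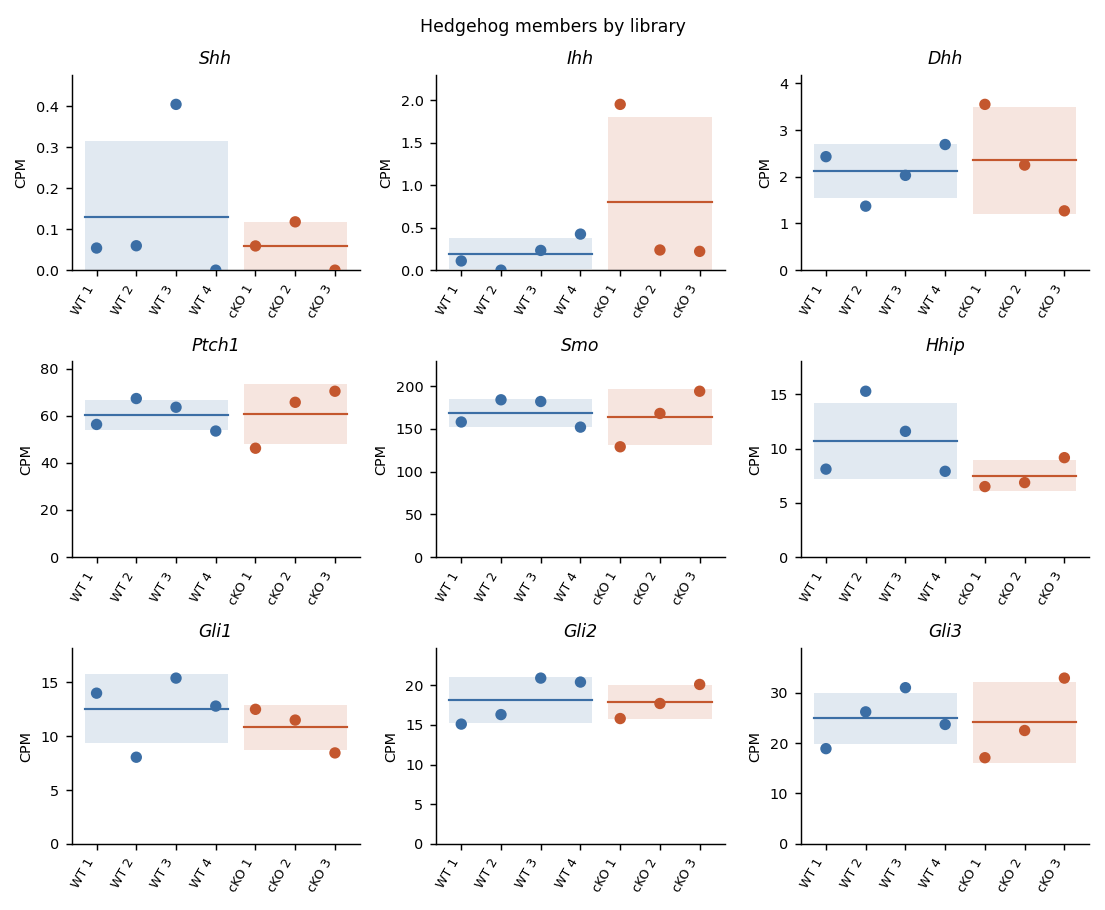
CPM of each of the 9 members (vertical axis, starting at 0) in every library, with blue points for WT and orange points for cKO. Lines are group means and shaded bands are ± 1 SD (n = 4 and 3). The points of the groups overlap in every panel, Shh stays under 0.5 CPM, and the 1.95 CPM of Ihh in cKO replicate 1 stands above its other 6 libraries.

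Shh (ENSMUSG00000002633, chromosome 5) was close to undetected. WT replicates 1 to 4 held 1, 1, 7 and 0 counts of Shh, and cKO replicates 1 to 3 held 1, 2 and 0, so that WT replicate 3 alone gave 58.3% of its 12 counts. That library had 0.405 CPM of Shh (95% Poisson interval 0.163 to 0.835, covering counting error only). With 3 counts as the upper limit, the 0 counts of WT replicate 4 and cKO replicate 3 allow up to 0.212 and 0.166 CPM. The upper ends of their two-sided 95% Poisson intervals, the kind given for WT replicate 3, are 0.261 and 0.204 CPM. The cKO to WT ratio of summed Shh counts was 0.428, with an exact 95% counting interval of 0.0746 to 1.72, so a difference was not detectable at this depth. Without WT replicate 3, mean Shh was 0.0379 CPM in WT and 0.0592 CPM in cKO, the opposite order. Exons of Shh share 15.7% of their bases with 9530036O11Rik on the opposite strand, which itself had 1 to 7 counts a library, and the library kit did not keep the strand. The sources used here do not say how reads in the shared bases were counted.

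Markers of the gut spanned a wide range of levels, and 8 of the 21 counted had under 10 counts in every library. Of the 11 stomach epithelium genes, Gkn1, a gastrokine of surface mucous cells, had 3 counts in all, every one in WT replicate 3. The mucin gene Muc5ac had 2 counts in all, the proton pump subunit gene Atp4b 3 and the annexin gene Anxa10 6. Other stomach genes were well above Shh, with 427 counts in all for Atp4a, 396 for Ctse and 108 for Gkn3. Of the 10 intestinal genes, the intestinal identity factor genes Cdx2 and Cdx1 reached at most 8 and 6 counts in any library (35 and 28 in all, above the 12 of Shh), and Fabp2, a fatty acid carrier of enterocytes, at most 3, while the cadherin gene Cdh17 had 102 in all. The 3 stomach list genes with the highest mean were Cldn18, a tight junction gene (6.86 to 11.5 CPM), Tff2, a trefoil peptide gene (4.20 to 11.7 CPM), and Atp4a (2.0 to 6.5 CPM). Those of the intestinal list were Vil1, a microvillus gene also known in other epithelia (16.1 to 31.1 CPM), Olfm4 (0.442 to 4.02 CPM) and Lgals4 (1.41 to 2.55 CPM). The summed stomach and intestinal level was 41.0 to 76.8 CPM in WT and 41.9 to 64.4 CPM in cKO. It was highest in WT replicate 4, where Shh had 0 counts. Vil1 took the largest share of this sum in every library. Vil1, Tff2 and Atp4a were highest in WT replicate 4, as was the summed pancreatic epithelium level, at 11500 CPM. Of that sum Cpa1 alone made up 8830 CPM, against 4050 to 5670 CPM of Cpa1 in the other libraries. Krt8 and Krt18 were also highest in WT replicate 4, while the remaining genes of the pancreatic list, Epcam and Cdh1 among them, were highest elsewhere. Lgals4 (2.55 CPM), Pgc (0.579 CPM) and Cdx2 (0.463 CPM) were, like Gkn1, highest in WT replicate 3, which held the most Shh. The other genes of the gut lists were highest in neither library. The part of gut cells in the Shh reads was not tested.

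Relations were computed on the log2 scale. Across the 7 libraries no relation of Shh to the summed gut epithelium level passed the threshold (Pearson r = −0.12, exact permutation p = 0.809; Spearman rho = −0.02, exact permutation p = 0.988; both unchanged by Benjamini-Hochberg adjustment over 3 relations). Without the pair of libraries farthest from the median log2 gut level, WT replicate 1 and cKO replicate 3, Pearson r was −0.89 over the 5 that remained, so its size rested on those libraries. Neither group alone has 6 libraries, so no value within a group was computed. With 0 to 7 counts a library, Shh gives such a comparison little resolution, and Vil1 took the largest share of the summed gut level.

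Ihh (ENSMUSG00000006538, chromosome 1) was scarce in 6 libraries and higher in 1. WT replicates 1 to 4 held 2, 0, 4 and 6 counts of Ihh, and cKO replicates 1 to 3 held 33, 4 and 4. The 1.95 CPM of cKO replicate 1 (95% Poisson interval 1.34 to 2.74) lay above all 6 others, at 0 to 0.424 CPM, and gave 62.3% of the 53 counts. The ratio of summed Ihh counts between cKO and WT was 4.39, with a counting interval of 2.26 to 9.18 that leaves out the variation between biological replicates. Without cKO replicate 1 the means were 0.191 CPM in WT and 0.229 CPM in cKO. The exact permutation p of Ihh over the 35 divisions of the libraries was 0.257. An edgeR fit without a filter on low counts gave Ihh a log2 fold change of 2.07 (SE 1.0). Its unadjusted edgeR p there was 0.0692 and its adjusted p 0.999.

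The library with the most Ihh was also the highest or second highest in several other marker lists. Fabp1, a fatty acid carrier of intestine and liver, had 1.89 CPM in cKO replicate 1 and 0 to 0.777 CPM elsewhere, and the goblet cell peptide gene Tff3 had 2.19 CPM against 0.166 to 1.34 CPM. The summed liver level of that library was 1940 CPM and its neuronal level 1170 CPM, the highest of the 7 for both, and its summed gut epithelium level of 64.4 CPM was second to the 76.8 CPM of WT replicate 4. Its intestinal factor gene Cdx2 stood at 0 counts, and its summed cartilage level was the lowest, at 59.6 CPM. The part of these cells in the Ihh reads was not tested. Over the 7 libraries Ihh and the summed gut epithelium level gave Pearson r = 0.43 (exact permutation p = 0.335, adjusted over 3 relations 0.809) and Spearman rho = 0.75 (exact permutation p = 0.0663, adjusted 0.199), with r = 0.41 over the 5 libraries left without WT replicate 1 and cKO replicate 3. Neither passed the threshold.

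**Figure D2:**
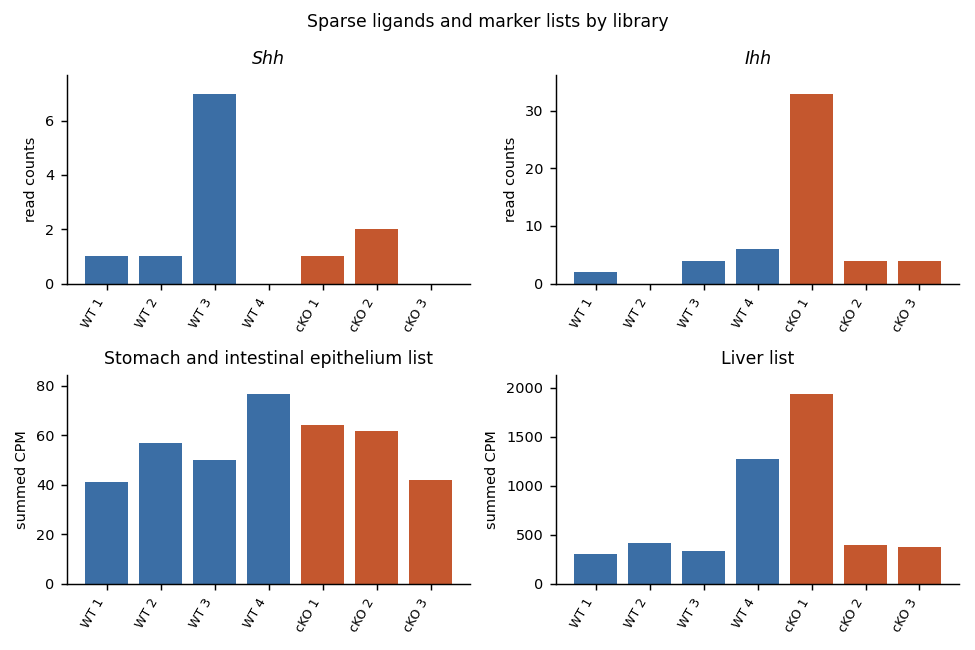
Bars give read counts of Shh and Ihh (upper panels) and the summed CPM of the stomach and intestinal epithelium list and of the liver list (lower panels) in each library, in blue for WT and orange for cKO. Shh peaks at 7 counts in WT replicate 3, Ihh at 33 counts in cKO replicate 1, which is also the highest library for liver genes.

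Dhh (ENSMUSG00000023000, chromosome 15) was the best measured ligand. WT replicates 1 to 4 had 2.43, 1.37, 2.03 and 2.69 CPM of Dhh, and cKO replicates 1 to 3 had 3.55, 2.25 and 1.27 CPM, from 23 to 60 counts a library. The highest and the lowest library were both cKO, a range of 2.79-fold, and the WT libraries lay between them. The group means were 2.13 ± 0.573 CPM (SD, n = 4) and 2.36 ± 1.14 CPM (SD, n = 3). The fitted log2 fold change of Dhh was 0.15 (SE 0.376, 95% interval −0.71 to 1.00), so changes up to 2.00-fold in cKO lie within the interval. Leaving out cKO replicate 1 gave −0.27 and leaving out WT replicate 2 gave −0.016, so its direction rested on those libraries. Exons of Dhh share 12.4% of their bases with Rhebl1 on the same strand, which had 30 to 66 counts a library, and 25.2% with Gm49442 on the opposite strand, which had 0 or 1.

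Schwann cell and glia markers were present in all libraries, with a summed level of 148 to 175 CPM in WT and 148 to 171 CPM in cKO. The 3 with the highest mean were Erbb3, a neuregulin receptor gene also known in epithelia (71.3 to 125 CPM), Sox10, the glial identity factor gene (13.5 to 24.9 CPM), and Fabp7 (5.07 to 23.4 CPM). Dhh and the summed list gave Pearson r = −0.24 (exact permutation p = 0.576, adjusted 0.809) and Spearman rho = −0.36 (exact permutation p = 0.444, adjusted 0.666), with r = −0.11 over the 5 libraries left without WT replicate 3 and WT replicate 4. The sign rested on cKO replicate 1, without which r was 0.13, and Erbb3 took the largest share of the summed list.

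Smo (ENSMUSG00000001761, chromosome 6), which carries the signal across the membrane, was the most abundant member. WT replicates 1 to 4 had 158, 184, 182 and 152 CPM of Smo, and cKO replicates 1 to 3 had 129, 168 and 194 CPM. The lowest and the highest library were again both cKO. The means of 169 ± 16.5 CPM (SD, n = 4) and 164 ± 32.8 CPM (SD, n = 3) gave a fitted log2 change of −0.05 (SE 0.140, 95% interval −0.36 to 0.27), which leaves room for 0.777 to 1.2 times the WT level. It was 0.10 without cKO replicate 1.

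Ptch1 (ENSMUSG00000021466, chromosome 13), the receptor and a target of the pathway, had 56.3, 67.3, 63.6 and 53.5 CPM in WT replicates 1 to 4 and 46.2, 65.7 and 70.4 CPM in cKO replicates 1 to 3. As for Smo, cKO replicate 1 was lowest and cKO replicate 3 highest. The group means were 60.1 ± 6.37 CPM (SD, n = 4) and 60.8 ± 12.8 CPM (SD, n = 3). The fitted log2 fold change of Ptch1 was 0.02 (SE 0.149, 95% interval −0.32 to 0.35). The sign turned when WT replicate 1 (−0.016) or WT replicate 4 (−0.041) was left out, and also for cKO replicate 2 (−0.048) and cKO replicate 3 (−0.10).

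Hhip (ENSMUSG00000064325, chromosome 8), the secreted and membrane-bound trap for Hedgehog ligands, had the largest fitted difference of the 7 members that were tested. WT replicates 1 to 4 had 8.11, 15.3, 11.6 and 7.91 CPM of Hhip, and cKO replicates 1 to 3 had 6.5, 6.87 and 9.17 CPM. WT replicates 2 and 3 were above all cKO libraries, while WT replicates 1 and 4 fell within the cKO range. The means of 10.7 ± 3.47 CPM (SD, n = 4) and 7.51 ± 1.45 CPM (SD, n = 3) gave a fitted log2 change of −0.51 (SE 0.257, 95% interval −1.09 to 0.07), or 0.468 to 1.05 times the WT level. With an unadjusted edgeR p of 0.0782, an adjusted p of 1.0 and an exact permutation p of 0.171, this difference did not pass. It ranged from −0.68 to −0.29 as single libraries were left out, the smaller value without WT replicate 2.

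Gli1 (ENSMUSG00000025407, chromosome 10), the Gli factor whose own transcription follows the response, had 14.0, 8.05, 15.4 and 12.8 CPM in WT replicates 1 to 4 and 12.5, 11.5 and 8.45 CPM in cKO replicates 1 to 3. WT replicate 2 was the lowest of all libraries, although it was the highest for Hhip and second highest for Ptch1. The group means were 12.6 ± 3.19 CPM (SD, n = 4) and 10.8 ± 2.13 CPM (SD, n = 3). The fitted log2 fold change of Gli1 was −0.21 (SE 0.232, 95% interval −0.74 to 0.31). Leaving out WT replicate 2 gave −0.38, and leaving out cKO replicate 3 gave −0.061.

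Gli2 (ENSMUSG00000048402, chromosome 1), the main activator, varied least between libraries, with 15.1, 16.3, 20.9 and 20.4 CPM in WT replicates 1 to 4 and 15.8, 17.7 and 20.1 CPM in cKO replicates 1 to 3. Its highest library was 1.39-fold above its lowest, and both were WT. The fitted log2 fold change of Gli2 was −0.02 (SE 0.15, 95% interval −0.36 to 0.32). Gli3 (ENSMUSG00000021318, chromosome 13), the main repressor, had 18.9, 26.2, 31.0 and 23.7 CPM in WT replicates 1 to 4 and 17.1, 22.5 and 32.9 CPM in cKO replicates 1 to 3. Its range of 1.92-fold had a cKO library at either end, and its log2 fold change was −0.05 (SE 0.238, 95% interval −0.59 to 0.50). The sign of both changed without WT replicate 3 (0.052 for Gli2 and 0.077 for Gli3) or cKO replicate 1 (0.063 and 0.16), that of Gli2 also without WT replicate 4 (0.03), and that of Gli3 also without cKO replicate 2 (0.002).

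**Figure D3:**
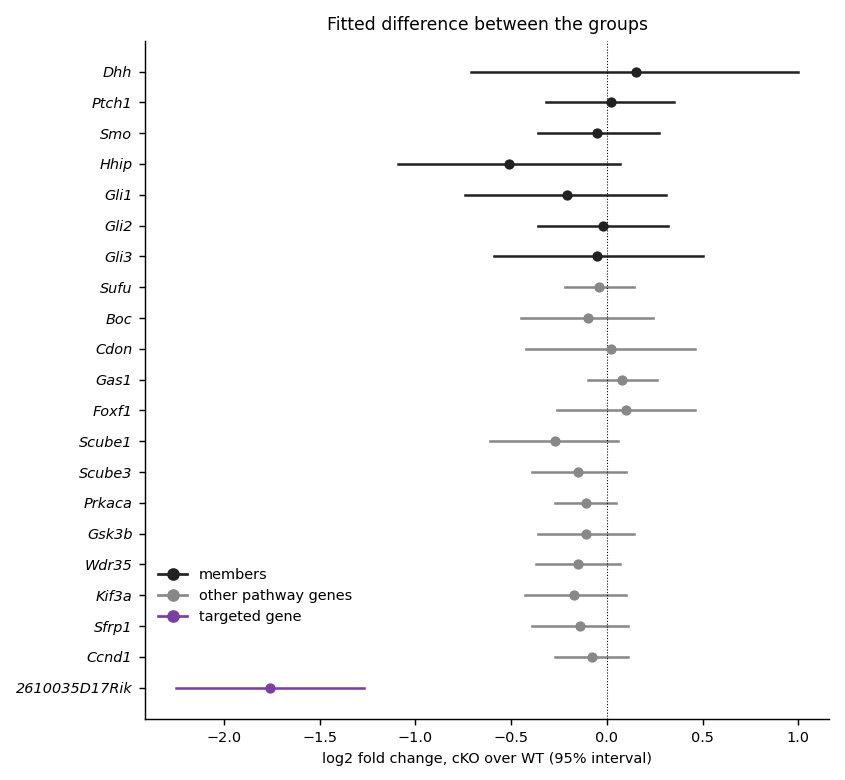
Points give the fitted log2 fold change of cKO over WT and bars its 95% interval for the 7 tested members (black), 13 other Hedgehog pathway genes (grey) and the targeted gene (purple). All intervals of members and other pathway genes include 0, and that of 2610035D17Rik runs from −2.25 to −1.27.

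Levels between genes were compared per kilobase of merged exons. Smo was highest, with 29.7 ± 3.99 CPM per kilobase (SD over the 7 libraries), followed by Ptch1 with 4.26 ± 0.611 CPM per kilobase. Gli2 (2.63 ± 0.348), Gli3 (2.57 ± 0.611) and Gli1 (2.37 ± 0.546 CPM per kilobase) came next, and Hhip had 1.03 ± 0.342 CPM per kilobase. The ligands were at the bottom, with 0.506 ± 0.178 CPM per kilobase for Dhh, 0.149 ± 0.221 for Ihh and 0.035 ± 0.0495 for Shh. Smo and Ptch1, and Ptch1 and Gli2, were apart in every library, whereas each later neighbour in this order overlapped with the next in its range over the libraries. Gli2 was above Gli3 in only 4 of 7 libraries and Gli3 above Gli1 in 4 of 7, so the order of the Gli genes was not resolved, and with the longest transcript as the length it was Gli3 (3.01), Gli1 (2.91) and Gli2 (2.72 CPM per kilobase). Dhh was above Ihh in 7 of 7 libraries.

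**Figure D4:**
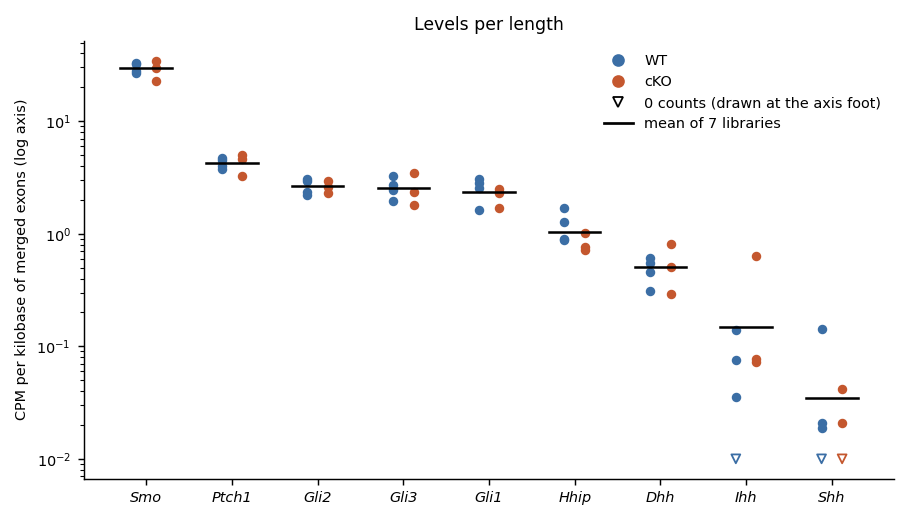
CPM per kilobase of merged exons on a log axis for the 9 members, ordered by their mean over 7 libraries (black line), with WT in blue and cKO in orange. Libraries with 0 counts are drawn as open triangles at the foot of the axis. Smo lies at 29.7 and Ptch1 at 4.26 CPM per kilobase, the Gli genes lie close together, and the 3 ligands are lowest.

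The members varied between libraries within both groups. Smo, Ptch1 and Gli3 were all highest in cKO replicate 3 and lowest in cKO replicate 1, at 0.22, 0.22 and 0.42 above and 0.37, 0.39 and 0.52 below their 7-library means on the log2 scale. Hhip was also lowest in cKO replicate 1. Dhh ran the other way, highest in cKO replicate 1 (0.67) and lowest in cKO replicate 3 (−0.81). Gli1 followed neither order, with its highest value in WT replicate 3 (0.38) and its lowest in WT replicate 2 (−0.55). The receptor complex genes and the target Gli1 were not highest in the same libraries. The summed neuronal level was lowest in WT replicate 2, at 94.4 CPM, and highest in cKO replicate 1, at 1170 CPM, and the summed gut mesenchyme level was also lowest in WT replicate 2 (140 CPM) and highest in cKO replicate 1 (256 CPM). The part of these cells in the variation of the members was not tested.

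**Figure D5:**
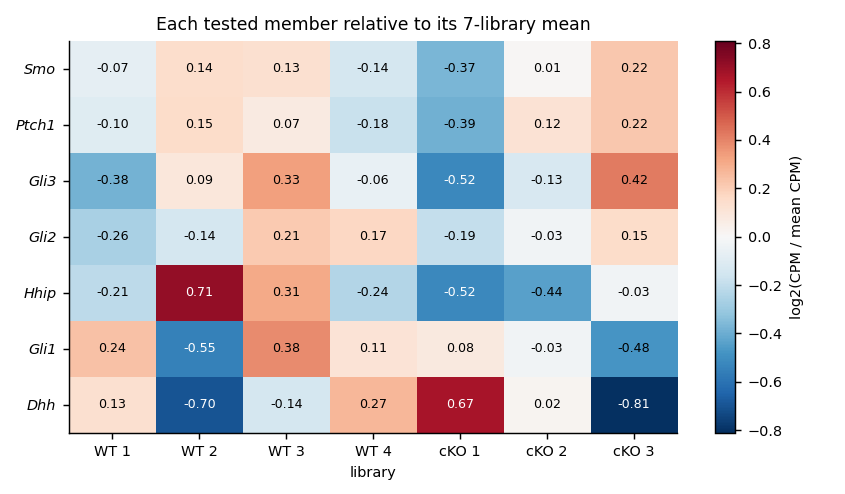
Each cell gives the log2 ratio of a tested member's CPM to its mean over the 7 libraries, with red above and blue below the mean. Smo, Ptch1 and Gli3 share their highest library (cKO replicate 3) and their lowest (cKO replicate 1), while Dhh has these libraries in the opposite order.

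The features whose log2 CPM over the 7 libraries was most like that of a member, out of 13666 candidates, describe these patterns without a test, since the best of so many is close by selection. For Gli1 they were Adora2a, an adenosine receptor gene (Pearson r = 0.974), Cxcl12, a chemokine gene of stromal cells (0.973), and Col16a1, a fibril-associated collagen gene (0.967). Cxcl12 had 301, 237, 299 and 277 CPM in WT replicates 1 to 4 and 269, 267 and 241 CPM in cKO replicates 1 to 3, with WT replicate 2 lowest as for Gli1. For Dhh they were Ppcdc (0.989), Isca2 (0.985) and Fxr2 (0.981). For Ihh they were Arf5 (0.985), Tnfrsf13b (0.983) and Fcgrt (0.983), and for Shh Orai3 (0.955), Lgals4 (0.954) and Ccdc6 (0.939). Lgals4, an intestinal galectin gene that is also in the gut list, had its highest value in WT replicate 3, at 2.55 CPM, the library with 7 of the 12 Shh counts. At so few counts the profiles of Shh and Ihh are set largely by 1 library each.

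No other gene of the pathway passed the test either. Of 50 genes in 5 lists 48 were tested, edgeR and DESeq2 each called 0 of them, and 0 had an unadjusted p under 0.05 with edgeR. In the fit 12 were higher and 36 lower in cKO, with a median log2 fold change of −0.06 and a range from −0.27 to 0.10, where 46.0% of all tested features were higher and the median was −0.01. The 6 genes for ligand acylation and release were all lower in the fit (median −0.14). Of them Scube1 and Scube3, secreted helpers of ligand release, averaged 14.0 ± 1.97 and 29.6 ± 2.69 CPM over WT (SD, n = 4), against 11.6 ± 1.26 and 26.8 ± 2.65 CPM over cKO (SD, n = 3). Their log2 fold changes were −0.27 (95% interval −0.61 to 0.06) and −0.15 (−0.39 to 0.10).

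The co-receptors, which hold ligand for Ptch1, were abundant, and 2 of 6 genes of their list were higher in the fit (median −0.03). For Gas1 the mean was 157 ± 9.19 CPM over the WT libraries (SD, n = 4) and 166 ± 7.86 CPM over the cKO libraries (SD, n = 3). For Cdon these means were 128 ± 16.4 and 130 ± 36.2 CPM, and for Boc 45.4 ± 7.94 and 42.2 ± 6.53 CPM. Cdon had its lowest value in cKO replicate 1 (90.7 CPM) and its highest in cKO replicate 3 (162 CPM), the same libraries as Smo and Ptch1.

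Of the 15 genes for the intracellular relay, 2 were higher and 13 lower in the fit (median −0.04). Sufu, which holds Gli proteins in the cytoplasm, averaged 48.9 ± 1.02 CPM over WT (SD, n = 4) and 47.5 ± 3.46 CPM over cKO (SD, n = 3), with a fitted difference of −0.04 on the log2 scale (95% interval −0.22 to 0.14). Prkaca, the catalytic subunit of protein kinase A, which marks Gli proteins for processing, was the only one of the 48 whose groups did not overlap, with 149 to 157 CPM in WT and 134 to 147 CPM in cKO. Its log2 fold change of −0.11 (95% interval −0.27 to 0.05) did not pass (edgeR adjusted p = 1.0), and 1 of 48 is close to the 2.72% of all tested features. Gsk3b, a kinase of the same step, had a log2 fold change of −0.11 (95% interval −0.36 to 0.14).

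Of the 10 genes for the primary cilium, 2 were higher and 8 lower in the fit (median −0.09). The transport genes Wdr35 (log2 fold change −0.15, 95% interval −0.37 to 0.07) and Kif3a (−0.17, −0.43 to 0.10) had the smallest p among them. Of 13 genes known to respond to Hedgehog in mesenchyme, 11 were tested, with 6 higher and 5 lower in the fit (median 0.01). Foxf1, a mesenchymal forkhead factor downstream of gut Hedgehog signals, averaged 6.11 ± 0.470 CPM over WT (SD, n = 4) and 6.52 ± 0.687 CPM over cKO (SD, n = 3), with a fitted difference of 0.10 on the log2 scale (95% interval −0.26 to 0.46). Sfrp1, a secreted Wnt inhibitor, gave −0.14 (−0.39 to 0.11) and the cyclin gene Ccnd1 −0.08 (−0.27 to 0.11).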

How the data were processed

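Polyadenylated RNA was sequenced with a NEBNext Ultra kit that, per the labels' protocols, has no step that keeps the strand. The authors deposited 1 table of raw counts per feature, not normalized. Per the submitters' processing notes, HISAT2, StringTie, featureCounts and the build mm39 were involved, with versions and settings not given in the sources used here. The reference annotation was GENCODE M21 (GRCm38), another build, so it gave symbols (26764 identifiers matched), chromosomes, exon lengths and overlaps only.

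Counts were fitted with edgeR 4.0.16 in R 4.3.3 (filterByExpr, TMM factors of 0.952 to 1.04, glmQLFit with robust estimation, glmQLFTest, group as the only term) over 16910 features, with calls at a Benjamini-Hochberg adjusted p under 0.05. SEs came from the coefficient and the F statistic. CPM was computed on TMM-scaled totals, and 2 prior counts were added for log2 CPM. Where a library held 0 counts of a gene, its upper limit is 3 counts. Permutation tests were exact and two-sided over 35 divisions (smallest possible p 0.0286) or over all pairings. DESeq2 1.42.0 was an alternative. The fit was tested on simulated data. No library repeated another: chi-square divided by its degrees of freedom was 11.1 to 50.8 over the 21 pairs. The column of WT replicate 4 carries another number in its group name than the other 6, with no meaning given, and values without that library are among the alternatives.

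The members and gene lists were chosen with earlier results of these data known. Named were the 9 members, 2610035D17Rik, the 2 genes of each pathway list with the smallest p, Sufu, Boc, Cdon, Gas1 and Foxf1, the 3 highest genes of 3 marker lists, and the 3 features of at least 1 CPM most like Shh, Ihh, Dhh and Gli1. The results of 2 genes, and 1 alternative that needs them, are not reported here. Other markers were named after their values were seen, as were Rhebl1 and other neighbours. The remaining marker lists are given by their summed level, in CPM for WT and then cKO: endothelium 518 to 636 and 526 to 586, mesothelium 206 to 250 and 212 to 262, erythroid cells 963 to 2310 and 1330 to 2820.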

Additional observations from a re-analysis of the deposited data

Results flagged for a closer look

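Shh in WT replicate 3, at 0.405 CPM, lay far from the other WT libraries, at 0 to 0.0596 CPM, on 7 counts against 0 or 1. Boc in WT replicate 3 had 57.2 CPM, where the other WT libraries had 40.2 to 42.6 CPM. The summed liver level of WT replicate 4 was 1270 CPM, against 306 to 421 CPM in the other WT libraries. In each case the gap to the nearest WT library took most of the range of the group. Chance flags about 1 in 20 groups, or 2.15 of the 43 examined, and 3 were found. The cKO group, with 3 libraries, was not examined in this way.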

How the results depend on the processing

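Under all 14 alternatives 0 members and 0 other pathway genes were called. Over all features the call count of 1 was 0 with DESeq2 size factors, 0 with a filter at 1 CPM, 0 without robust estimation, 4 without a filter, 12 with DESeq2 and 13 with the replicate block, and 0 to 3 as single libraries were left out (3 when WT replicate 1 or 3 was left out, 1 for cKO replicate 1 and 0 for each of the other 4). The fold change of 2610035D17Rik passed at −1.76 with DESeq2, −1.76 without a filter and −1.77 with the replicate block.

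Whether replicate numbers pair the samples was not settled. Deviations of same-numbered samples correlated over genes at 0.28, 0.42 and 0.06. For cKO replicates 1 and 2 the same-numbered WT library gave the highest value, while cKO replicate 3 correlated better with WT replicate 2 (0.30). With the replicate block, Ptch1 was at −0.055 and Gli2 at 0.042, opposite in sign to the values without it, and neither was called. Without both WT replicate 4 and cKO replicate 1, the direction turned for Dhh (−0.15), Smo (0.049), Gli2 (0.12) and Gli3 (0.13). As single libraries were left out, Dhh ranged from −0.27 to 0.45, Ptch1 from −0.10 to 0.18, Smo from −0.19 to 0.10, Gli2 from −0.11 to 0.063 and Gli3 from −0.33 to 0.16, while Gli1 (−0.38 to −0.061) and Hhip (−0.68 to −0.29) stayed below 0. The causes were not tested.

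The Shh and gut relation ranged from r = −0.43 to 0.21 and the Dhh and Schwann relation from −0.46 to 0.13 without single libraries. With the longest transcript as length, Smo had 44.1 and Ptch1 5.82 CPM per kilobase. Depth limits Shh and Ihh most, at 12 and 53 counts in all.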
